A study of Bos taurus and Felis catus with 14 samples.

Results

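MicroRNA hairpins that lie on top of each other on opposite strands of the bovine and feline genomes were taken from the deposited miRWoods predictions. A member was any predicted precursor whose span shared at least 1 nt with a precursor on the other strand of the same sequence, and any precursor with a name beginning in as-, the prefix given to loci antisense to a known microRNA. Of 1305 predicted precursors, 89 were members. They were 55 of 810 bovine precursors, of which 50 formed 25 pairs and 5 were as- loci with no partner, and 34 of 495 feline precursors, which formed 17 pairs. No precursor had more than 1 partner, and none overlapped another on the same strand in either set, since the authors kept a single hairpin, that with the highest decision value, where hairpins overlapped.

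The predictions rest on small RNA libraries from tissues of the cow (Bos taurus) and the cat (Felis catus). The 10 bovine libraries came 1 each from retina, optic nerve, iris, submandibular lymph node, penis, dental pulp, bone marrow and oral papillae of 1 steer (8 libraries), from brain stem of another and from corium of the remaining animal. The 4 feline libraries were 2 of skin and 2 of muscle from 3 cats. The paper describes the cattle as Angus steers and the cats as neutered male domestic short hairs aged 10 years or more. All libraries of a species were combined into 1 call set, so there is no replicate of a call. The position files used here tie no tissue, animal or read number to a locus, and the read numbers in the study's supplement were not used here. The files hold start, end, strand and name of each precursor and of each mature product. Positions are counted from 1 in the authors' build, which the sources used here do not name.

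A microRNA precursor folds back on itself into a stem with a loop. Drosha cuts the stem near its base and Dicer cuts it near the loop, which leaves a short duplex of the 5p product (from the 5′ arm) and the 3p product (from the 3′ arm), each with a short overhang at its 3′ end. Because a stem is nearly its own reverse complement, the other DNA strand of the same locus can encode a hairpin too, and loci where both transcripts yield microRNAs are known in flies and mammals. The products of the 2 strands can differ in their seeds, the bases at the 5′ end that pair with target messages, and then in their predicted targets. Seeds were not compared here. For this geometry, the 5p product of 1 strand lies across from the 3p product of the other.

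Members of a pair covered nearly the same stretch. The overlap was 50 to 103 nt in the cow and 50 to 73 nt in the cat, with a median of 62 nt in both. As a share of the shorter hairpin it ranged from 94.3% to 100% over the bovine pairs and from 94.4% to 100% over the feline pairs, and the median was 100% in each species. The rule asked for 1 nt and the smallest overlap found was 50 nt, while the closest opposite-strand loci that did not overlap were 88 nt apart in the cow (as-bta-mir-374b and bta-mir-421) and 242 nt apart in the cat (as-fca-mir-215 and fca-mir-194).

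The centres of the hairpins in a pair were 0 to 10.5 nt apart in the cow and 0 to 8 nt apart in the cat, with a median of 2 nt in both. Within a pair the hairpin lengths differed by a median of 4 nt, with a range of 0 to 35 nt in the cow and 0 to 32 nt in the cat. One hairpin lay wholly inside the other in 17 of 25 bovine pairs and 12 of 17 feline pairs. In 7 bovine and 5 feline pairs each hairpin ran past the other at its 3′ end. The opposite stagger, with both 5′ ends outermost, was found at bta-mir-2285e-1 and its antisense locus and at no feline pair. No pair had identical spans.

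**Figure D1:**
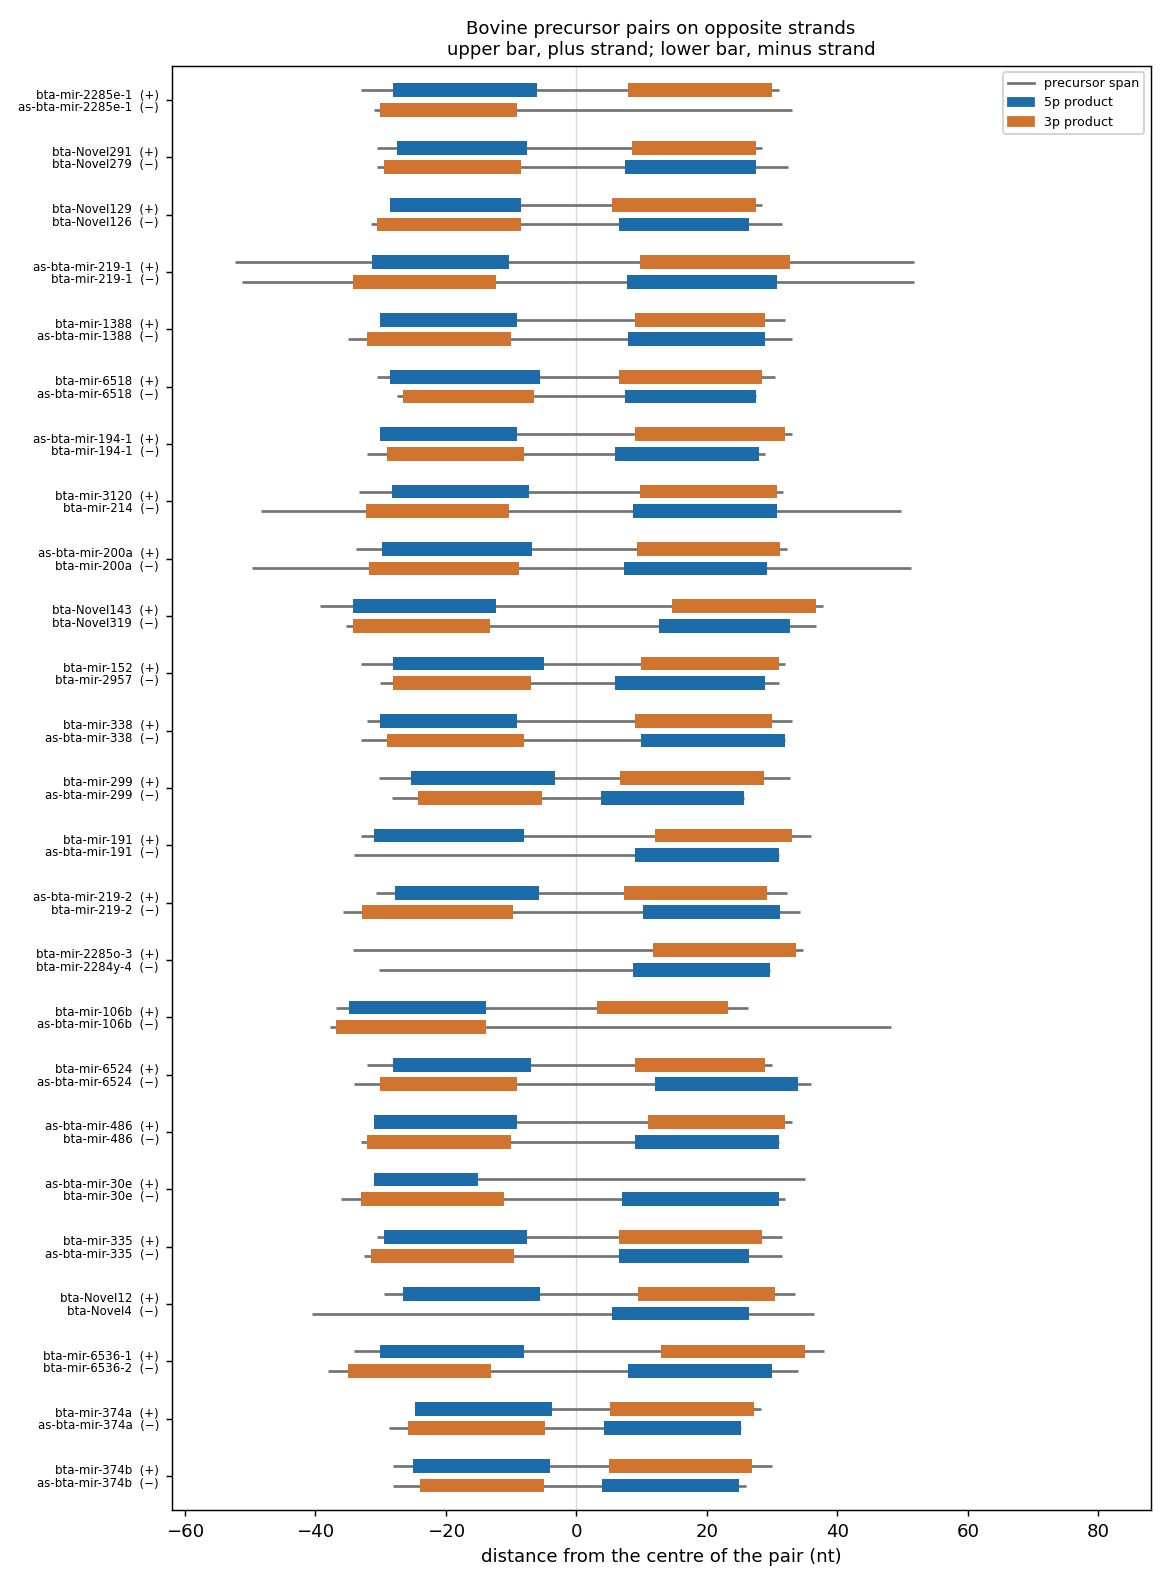
The 25 bovine pairs, each drawn as a plus-strand hairpin above a minus-strand hairpin, against distance in nt from the centre of the pair. Grey lines are precursor spans and coloured bars are 5p and 3p products. In every pair at least 1 product of a strand lies across from a product of the other, and as-bta-mir-106b reaches 22 nt past its partner on the right.

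**Figure D2:**
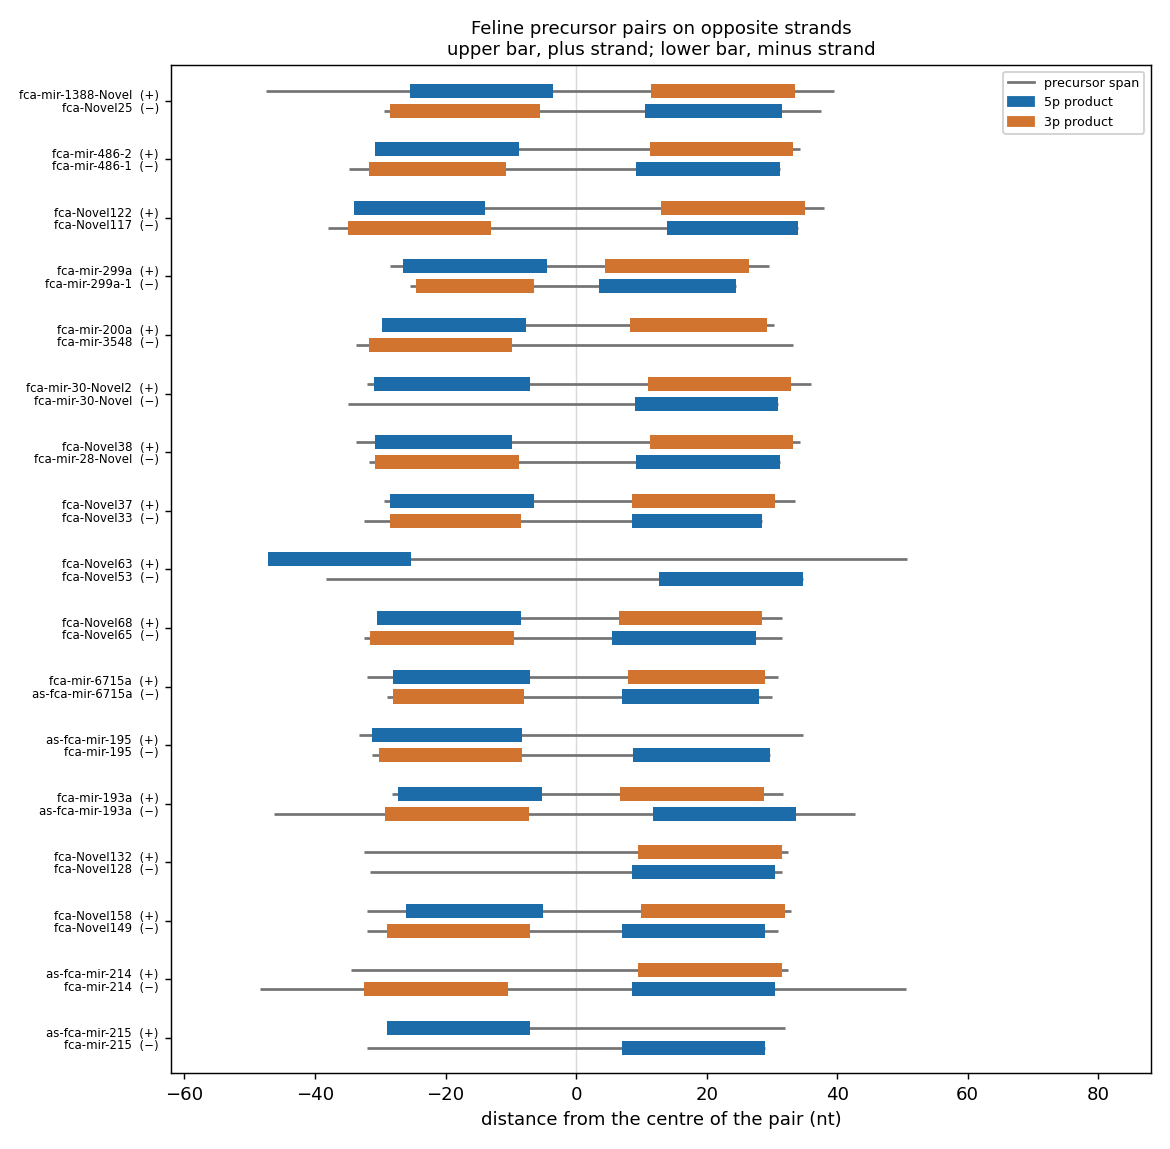
The 17 feline pairs, with the same layout and scale in nt. In 15 pairs products of the 2 strands lie across from each other, and the pairs fca-Novel63 with fca-Novel53 and fca-mir-215 with its antisense locus have 5p products alone, which lie at opposite ends.

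Mature products of the 2 strands faced each other at all 25 bovine pairs and at 15 of the 17 feline pairs. Both arms of the stem had such facing products in 19 bovine and 10 feline pairs, and a single arm had them in 6 and 5. In all this made 44 facing product pairs in the cow and 25 in the cat, each a 5p product against a 3p product. They shared 16 to 21 nt in the cow and 17 to 22 nt in the cat, with a median of 20 nt in both, and no product had the same span as the one it faced. Of the 93 products from paired bovine hairpins 88 faced a product, as did 50 of 58 in the cat.

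The ends of facing products were offset in one direction more often than in the other. Each facing product pair has 2 ends, and at each end the 3′ end of 1 product faces the 5′ end of the other. The 3′ end ran past the 5′ end at 64 of 88 bovine ends (72.7%) and at 38 of 50 feline ends (76%). It was level at 8 bovine and 5 feline ends and fell short at 16 and 7. The most frequent extension was 2 nt in both species, with 26 bovine and 18 feline ends, and the median was 2 nt in the cow and 1 nt in the cat. The range was wider in the cow, from -5 to 5 nt, than in the cat, from -5 to 3 nt.

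This held at both sides of the stem. At the base, where the 3p product ends, the 3′ end was longer at 31 of 44 bovine and 19 of 25 feline ends. At the loop, where the 5p product ends, it was longer at 33 of 44 bovine and 19 of 25 feline ends. Both 3′ ends protruded in 25 of 44 bovine and 16 of 25 feline facing product pairs, whereas both 5′ ends protruded in 5 and 1. The displacement between sense and antisense products, and the abundance of antisense reads, were among the features from which the authors' classifier scored hairpins, so these offsets are not independent of the calling.

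**Figure D3:**
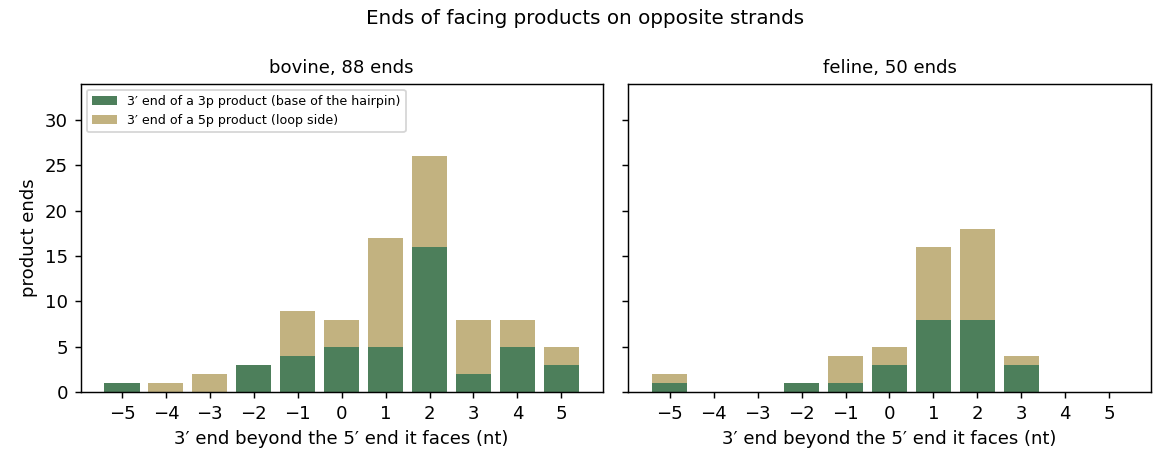
Extension in nt of each 3′ end beyond the 5′ end it faces on the other strand (horizontal axis) against the number of product ends (vertical axis), for 88 bovine and 50 feline ends. Colours separate the base of the hairpin from the loop side, positive values mean that the 3′ end is longer, and 2 nt is the most frequent value in both species, with 26 and 18 ends.

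Most hairpins in pairs gave products from both arms. Both arms were represented at 43 of 50 paired bovine hairpins (86%, exact 95% interval 73.3 to 94.2%) beside 587 of all 810 bovine precursors (72.5%). In the cat it was 24 of 34 (70.6%, interval 52.5 to 84.9%) beside 325 of all 495 (65.7%). The intervals cover counting error only, treat the 2 hairpins of a pair as independent and so may be too narrow. The difference was not tested. All 4 arms of a pair gave a product in 19 of 25 bovine and 10 of 17 feline pairs. Among paired bovine as- loci 13 of 17 had both arms, beside 17 of 17 of the microRNAs they are named after. In the cat these were 2 of 5 and 4 of 5. Of the single-arm hairpins in pairs, 4 of 7 in the cow and 3 of 10 in the cat were as- loci, which made up 17 of the 50 bovine and 5 of the 34 feline hairpins in pairs. Products of paired hairpins had a median length of 22 nt in both species, the same as over all products.

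The pairs fell into several kinds by name. In the cow 17 pairs joined an annotated microRNA to an as- locus, 4 joined 2 annotated microRNAs, and 4 joined loci numbered outside any family. In the cat 5 pairs joined an annotated microRNA to an as- locus, 3 joined 2 annotated microRNAs, 3 held a further member of a known family, and 6 joined loci without a family. Of the loci without a family, 8 of 283 were paired in the cow (2.83%, interval 1.23 to 5.49%) and 14 of 187 in the cat (7.49%, interval 4.15 to 12.2%). The intervals treat loci as independent although paired loci come 2 at a time, so they are too narrow. The difference between the species was not tested. Among annotated names the shares were 25 of 412 (6.07%) and 11 of 213 (5.16%). A name depends on what was annotated in each species before, so the same kind of pair can carry different labels. For its clusters the paper took miRBase as the annotated set in the cow and the predictions of Laganà et al. in the cat. Annotated names therefore need not mean the same in the 2 sets.

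At the mir-214 locus the names differed in this way. In the cow, bta-mir-214 (chromosome 16, 40485809 to 40485906, minus strand, 98 nt) enclosed bta-mir-3120 (40485824 to 40485888, plus strand, 65 nt). The feline counterpart was fca-mir-214 (sequence NC_018739.2, 14408571 to 14408669, minus strand, 99 nt), which enclosed a locus named as-fca-mir-214 (14408585 to 14408651, 67 nt). The inner hairpin began 18 nt inside the 5′ end of mir-214 in both species and stopped 15 nt short of its 3′ end in the cow and 14 nt short in the cat. mir-214 is known for roles in muscle and skeletal development and mir-3120 is its known mirror microRNA, in an intron of the dynamin gene DNM3. The neighbour on the sequence was mir-199a-1 in both sets, 5707 nt from bta-mir-214 and 5621 nt from fca-mir-214.

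Across the mir-214 stem, the 5p product of mir-214 and the 3p product of the other strand shared 21 nt in both species. The bovine bta-mir-3120 also had a 5p product, which shared 18 nt with the 3p product of bta-mir-214, whereas as-fca-mir-214 had a 3p product alone.

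At mir-200a, a microRNA that keeps epithelial cells epithelial, the cow had bta-mir-200a (chromosome 16, 52521318 to 52521418, minus strand, 101 nt) around as-bta-mir-200a (52521334 to 52521399, 66 nt). The cat had fca-mir-200a (NC_018730.2, 277369 to 277428, plus strand, 60 nt) inside fca-mir-3548 (277365 to 277431, 67 nt). The spans called for mir-200a itself thus differed by 41 nt between the sets, while those on the other strand differed by 1 nt. In both species the 3p product opposite mir-200a was 22 nt long and reached 2 nt beyond the 5′ end of the 5p product of mir-200a. All 4 ends of the bovine facing products had a 3′ extension of 2 nt. The next locus was mir-200b, 552 nt from bta-mir-200a and 643 nt from fca-mir-200a.

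The mir-30e locus had equal geometry in the 2 species. bta-mir-30e (chromosome 3, 106062501 to 106062568, minus strand) was 68 nt long and as-bta-mir-30e (106062506 to 106062571) was 66 nt long. The cat had 2 loci named as further members of the mir-30 family, fca-mir-30-Novel2 (NC_018730.2, 31678903 to 31678970, plus strand) and its partner (31678900 to 31678965), with the same lengths. Read along the hairpin on the strand of the neighbouring mir-30c locus, the other hairpin started 3 nt outside its 5′ end and ended 5 nt inside its 3′ end in both species. The other strand had a 5p product alone in both, 16 nt long in the cow and 22 nt in the cat, and both began 2 nt inside the 3′ end of the 3p product they faced. mir-30 microRNAs are widely expressed, and the next locus was mir-30c, 3061 nt away in the cow and 2956 nt in the cat.

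mir-299 belongs to the imprinted microRNA cluster of the DLK1 and DIO3 region. bta-mir-299 (chromosome 21, 67563571 to 67563633, plus strand, 63 nt) enclosed as-bta-mir-299 (67563573 to 67563626, 54 nt), and fca-mir-299a (NC_018728.2, 143467266 to 143467323, plus strand, 58 nt) enclosed fca-mir-299a-1 (143467269 to 143467318, 50 nt). The feline names read as copies of a gene, but the loci are the 2 strands of 1 place. All 4 arms gave products in each species, and the 3p product of the inner hairpin was short in both, with 19 nt in the cow and 18 nt in the cat. The gap to mir-411 was 399 nt in both sets, measured to bta-mir-411a in the cow.

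For mir-1388 the sets held bta-mir-1388 (chromosome 13, 54375944 to 54376005, plus strand, 62 nt) inside as-bta-mir-1388 (54375939 to 54376006, 68 nt), and a feline locus named as a further mir-1388 member (NC_018725.2, 441327 to 441413, plus strand, 87 nt) around fca-Novel25 (441345 to 441411, 67 nt). The locus opposite the feline mir-1388 carried no family name. Products came from all 4 arms in both species, with 20 nt shared at both facing product pairs of each.

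mir-486, a microRNA of red blood cells and muscle, was paired in both species under different names. as-bta-mir-486 (chromosome 27, 36261849 to 36261912, plus strand) and bta-mir-486 (36261847 to 36261910, minus strand) were both 64 nt long, and fca-mir-486-2 (NC_018726.2, 41258001 to 41258065, plus strand, 65 nt) and fca-mir-486-1 (41257997 to 41258062, minus strand, 66 nt) were again numbered like gene copies. All facing products had 3′ extensions of 1 or 2 nt at both ends. Which feline hairpin corresponds to bta-mir-486 was not resolved from positions.

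Set side by side in the 5 families whose orientation could be matched, facing products lay at nearly the same place in cow and cat. These families had 7 facing product pairs on the same arm in both species. Of the 14 ends, the product of the other strand ended at the same distance from the reference product in 6 and within 2 nt in 13. The exception was the short bovine 5p product opposite mir-30e, which differed by 6 nt at the end nearer the loop. These pairs were chosen because the name occurs in both sets. Over all facing products the 3′ end extended 1 to 3 nt at 51 of 88 bovine and 38 of 50 feline ends. Pairs of different families were not set side by side, so whether the closeness is particular to shared families was not tested.

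**Figure D4:**
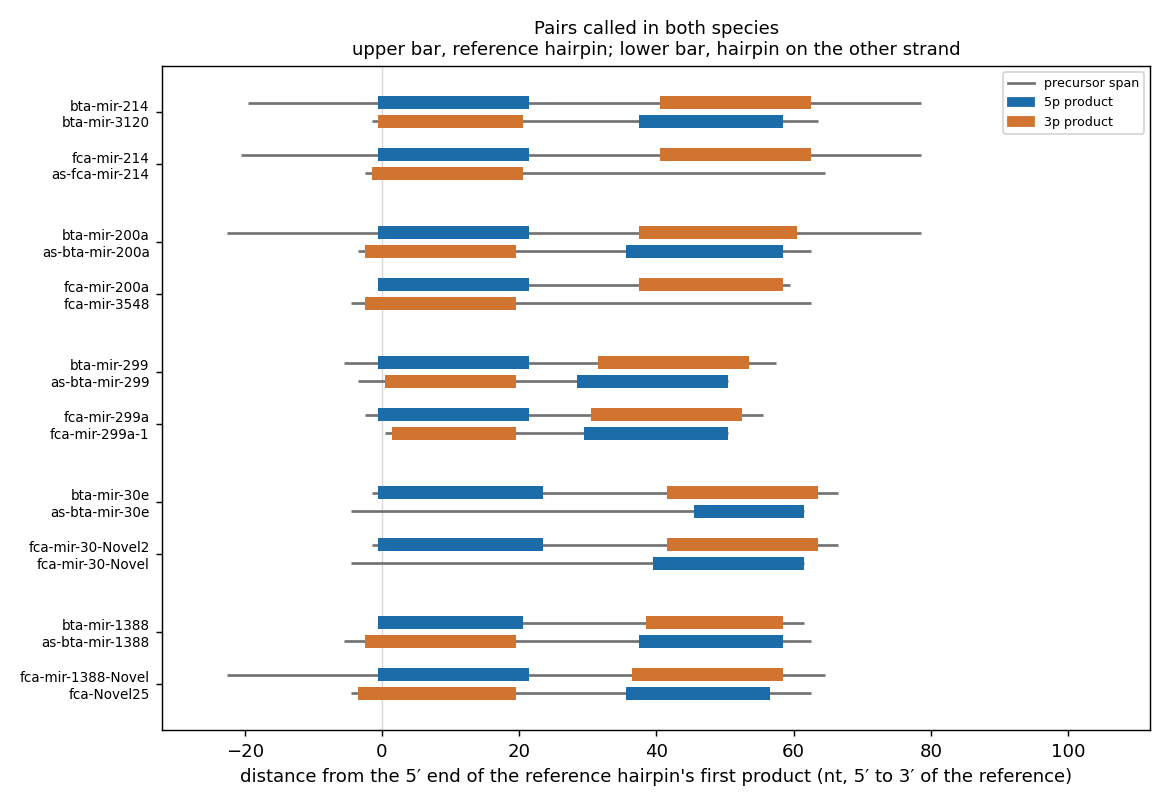
The pairs of 5 families called in both species, drawn 5′ to 3′ along a reference hairpin (upper bar of each pair) with the hairpin of the other strand below it. The horizontal axis is distance in nt from the 5′ end of the first product of the reference hairpin. The bovine and feline products of the other strand start and end within 2 nt of each other at 13 of the 14 ends compared.

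In the mir-194 and mir-215 cluster, a cluster of gut and liver epithelium, each species had a pair at a different microRNA. The bovine pair was bta-mir-194-1 (chromosome 16, 24306041 to 24306101, minus strand, 61 nt) with as-bta-mir-194-1 (24306043 to 24306105, 63 nt), 235 nt from bta-mir-215. The feline pair was fca-mir-215 (NC_018739.2, 57870194 to 57870254, minus strand, 61 nt) with as-fca-mir-215 (57870197 to 57870257, 61 nt), 245 nt from fca-mir-194. The feline hairpins each had a 5p product alone, so that no products faced each other, while the bovine pair had products from all 4 arms.

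In 2 bovine families each of the 2 loci was paired with its own as- locus. In mir-106, mir-194 and mir-338 only 1 of 2 bovine loci was paired. Over all families with a pair in either species, 25 of 131 bovine loci were paired, as- loci left out. mir-219, which promotes maturation of oligodendrocytes, has 2 bovine loci and both were paired. as-bta-mir-219-1 (chromosome 11, 98997145 to 98997248, plus strand, 104 nt) and bta-mir-219-1 (98997146 to 98997248, 103 nt) had the longest overlap of either set, 103 nt. as-bta-mir-219-2 (chromosome 23, 7335351 to 7335413, plus strand, 63 nt) lay within bta-mir-219-2 (7335346 to 7335415, 70 nt). Products came from all 4 arms at both loci. At the mir-219-1 locus the 3′ ends extended 2 or 3 nt throughout. At mir-219-2 the facing products of 1 side had 3′ extensions of 4 and 5 nt, and those of the other side had their 5′ ends outermost by 2 and 3 nt.

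The other family was mir-374, on the X chromosome. bta-mir-374a (81951234 to 81951286, plus strand, 53 nt) overlapped as-bta-mir-374a (81951230 to 81951283, 54 nt) by 50 nt, the smallest overlap in the cow. bta-mir-374b (82023929 to 82023986, plus strand, 58 nt) enclosed as-bta-mir-374b (82023929 to 82023982, 54 nt). Both antisense hairpins were 54 nt long, and all 4 arms gave products at both loci. Each mir-374 locus had another microRNA close by, bta-mir-545 at 106 nt from bta-mir-374a and bta-mir-421 at 84 nt from bta-mir-374b. The 2 feline mir-374 loci were not paired.

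Of the bovine pairs made of 2 annotated microRNAs, mir-214 with mir-3120 was described above. bta-mir-152 (chromosome 19, 39081174 to 39081238, plus strand, 65 nt), a member of the mir-148 family, enclosed bta-mir-2957 (39081177 to 39081237, 61 nt), and their products shared 19 and 21 nt. bta-mir-6536-1 (chromosome 9, 39435263 to 39435334, plus strand) and bta-mir-6536-2 (39435259 to 39435330, minus strand), both 72 nt long, were offset by 4 nt at each end. Their facing products shared 17 nt and had 3′ extensions of 5 nt at all 4 ends, the largest extension in either set, which occurred otherwise at 1 end at mir-219-2.

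The remaining pair of this kind came from the ruminant families mir-2284 and mir-2285, which have many copies. bta-mir-2285o-3 (chromosome 24, 33897670 to 33897738, plus strand, 69 nt) enclosed bta-mir-2284y-4 (33897674 to 33897733, 60 nt). A mir-2285 member thus lay on the plus strand and a mir-2284 member on the minus strand, with a 3p product and a 5p product that shared 18 nt. bta-mir-2285e-1 (chromosome 1, 158102075 to 158102138, plus strand) and as-bta-mir-2285e-1 (158102077 to 158102140), both 64 nt, formed the other pair. Of the 93 bovine loci with these family names 3 were paired.

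Antisense loci also faced microRNAs with known roles elsewhere. bta-mir-106b (chromosome 25, 36892055 to 36892117, plus strand, 63 nt) of the cell cycle cluster with mir-93 and mir-25 lay inside as-bta-mir-106b (36892054 to 36892139, 86 nt), and their centres were the farthest apart of any pair, 10.5 nt. The antisense hairpin had a 3p product alone, which shared 21 nt with the 5p product of mir-106b. bta-mir-191 (chromosome 22, 51543482 to 51543550, plus strand, 69 nt), a microRNA present in most tissues, had as-bta-mir-191 (51543481 to 51543545, 65 nt) with a 5p product alone, and bta-mir-425 lay 411 nt away.

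bta-mir-338 (chromosome 19, 52189642 to 52189706, plus strand) and as-bta-mir-338 (52189641 to 52189705) were both 65 nt long and shifted by 1 nt. mir-338 is a microRNA of neurons and oligodendrocytes. Here the products had their 5′ ends outermost by 1 or 2 nt at both facing product pairs, against the prevailing direction. bta-mir-335 (chromosome 4, 95071005 to 95071066, plus strand, 62 nt), in the imprinted gene MEST, lay inside as-bta-mir-335 (95071003 to 95071066, 64 nt), with 20 nt shared at both facing product pairs.

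The last antisense pairs of the cow were at microRNAs of less known function. bta-mir-6518 (chromosome 15, 42911515 to 42911575, plus strand, 61 nt) enclosed as-bta-mir-6518 (42911518 to 42911572, 55 nt), with centres at the same position. bta-mir-6524 (chromosome 26, 31733586 to 31733647, plus strand, 62 nt) lay inside as-bta-mir-6524 (31733584 to 31733653, 70 nt). At 1 side of the mir-6524 stem both 5′ ends were outermost, by 5 and 3 nt.

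In the cat, 3 more antisense loci had partners. fca-mir-195 (NC_018736.2, 2004971 to 2005031, minus strand, 61 nt), a relative of mir-15 and mir-16 that restrains the cell cycle, lay inside as-fca-mir-195 (2004969 to 2005036, 68 nt), 255 nt from fca-mir-497. The 5p product of the antisense locus and the 3p product of fca-mir-195 shared 22 nt, the longest product overlap in either set. fca-mir-193a (NC_018736.2, 19547660 to 19547719, plus strand, 60 nt) lay inside as-fca-mir-193a (19547642 to 19547730, 89 nt). Its facing products were the sole feline ones with both 5′ ends outermost, by 5 nt each, at 1 side of the stem. fca-mir-6715a (NC_018733.2, 69584638 to 69584700, plus strand, 63 nt) enclosed as-fca-mir-6715a (69584641 to 69584699, 59 nt), with 20 nt shared at both facing product pairs.

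A feline pair also joined a known family to a locus without one. A further member of the mir-28 family (NC_018731.2, 79308458 to 79308520, minus strand, 63 nt) lay inside fca-Novel38 (79308456 to 79308523, plus strand, 68 nt), and all 4 arms gave products. The bovine set had 1 mir-28 locus, which was not paired.

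Pairs without any family name numbered 4 in the cow and 6 in the cat. In the cow 3 of them had facing products on both arms and 1 on a single arm, and in the cat 4 had them on both arms, 1 on a single arm and 1 on neither. Of the 4 bovine pairs, the largest overlap was 72 nt, between bta-Novel143 (chromosome 17, 74630240 to 74630316, plus strand) and bta-Novel319 (74630244 to 74630315), and the smallest was 57 nt, between bta-Novel129 (chromosome 11, 37027754 to 37027810, plus strand) and bta-Novel126 (37027751 to 37027813). Both had products from all 4 arms. Of the 6 feline pairs, the smallest overlap was 58 nt, between fca-Novel37 (NC_018731.2, 106397314 to 106397376, plus strand) and fca-Novel33 (106397311 to 106397371). The largest was 73 nt, between fca-Novel63 (NC_018732.2, 20340859 to 20340956, plus strand, 98 nt) and fca-Novel53 (20340868 to 20340940, 73 nt), whose products did not meet.

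The 5 bovine as- loci without a partner were named after microRNAs that are not among the predicted bovine loci. They were as-bta-mir-2284y-3 (chromosome 1, 83105406 to 83105469, plus strand), as-bta-mir-2285o-1 (chromosome 12, 16533031 to 16533094, plus strand), as-bta-mir-2284f (chromosome 21, 57742114 to 57742175, minus strand), as-bta-mir-6533 (chromosome 28, 24903976 to 24904093, plus strand) and as-bta-mir-7691 (chromosome 7, 83830835 to 83830897, minus strand). The first 3 belong to the mir-2284 and mir-2285 families, so that 3 of 4 antisense names in those families had no partner. At 118 nt as-bta-mir-6533 was longer than any paired hairpin, and the other 4 were 62 to 64 nt long. Products came from both arms at 4 of the 5, and as-bta-mir-2284f had a 3p product of 22 nt alone.

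Some pairs lay in microRNA clusters. Another precursor was found within 10 kb of 9 of 25 bovine pairs (36%, interval 18.0 to 57.5%) and of 6 of 17 feline pairs (35.3%, interval 14.2 to 61.7%). Over all precursors the shares were 25.1% in the cow and 28.9% in the cat. For pairs with a family number the counts were 9 of 21 (42.9%, interval 21.8 to 66.0%) and 6 of 11 (54.5%, interval 23.4 to 83.3%), beside 35.3% and 46.3% of all precursors with a family number. For pairs without one they were 0 of 4 and 0 of 6, beside 18 of 286 (6.29%) and 5 of 197 (2.54%) of all such precursors, so these counts are too small to read. The number of nearby small RNA loci was a feature of the classifier. The bovine pairs were spread over 20 of the 30 sequences in the set and the feline pairs over 11 of 28.

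A gene table made from a later bovine assembly (RefSeq, ARS-UCD2.0) listed further microRNA genes at some of these places. All 25 annotated bovine names in pairs matched a gene in it. Of the 17 that were paired with an as- locus, 6 (35.3%, interval 14.2 to 61.7%) overlapped another microRNA gene of the table, whereas 17 of 384 matched names outside pairs did (4.43%, interval 2.60 to 6.99%). The 6 were MIR219-1 with MIR219B, MIR194-1 with MIR194B, MIR338 with MIR3065, MIR299 with MIR299-2, MIR191 with MIR191B, and MIR374A with MIR374C. The table has no strand, so it does not say on which strand the additional gene lies. The overlap counts were not tested, and this comparison was chosen after the values had been seen.

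Counted by place, 13 of 21 bovine pairs with an annotated name (61.9%) lay within a protein-coding gene of that table. By name, 9 of the 17 paired with an as- locus did (52.9%), beside 59.1% of the 384 matched names outside pairs. Genes that contained these microRNAs, on a strand the table does not give, included DNM3 for MIR214 and MIR3120. Both of these also lay in the long non-coding RNA gene LOC132342463. Others were COPZ2 for MIR152 and for MIR148C (the table's symbol for bta-mir-2957), AATK for MIR338, MCM7 for MIR106B and NFYC for MIR30E. Further ones were ANK1 for MIR486, MEST for MIR335, IARS2 for MIR194-1 and REV3L for MIR6536-1 and MIR6536-2. MIR374A and MIR374B lay in the long non-coding RNA gene LOC104970537. MIR1388, MIR191, MIR200A, MIR219-1 and MIR219-2 lay in no protein-coding or long non-coding RNA gene of the table.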

How the data were processed

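Small RNA from 10 bovine and 4 feline libraries was trimmed, aligned and passed to miRWoods by the authors, who ran it on the combined libraries of a species and extended the spans of hairpins slightly at each end. The submitters' processing notes name cutadapt 1.15, Bowtie 1.2.11 and SAMtools. Of overlapping candidates the one with the highest score was kept. In their comparison of programs the authors scored a precursor antisense to an annotation as a false positive. The deposited values are genome positions (start and end in nt), with strand and name. These files hold no counts, and the study's supplementary read numbers were not used here. With 1 call set per species no statistical test was run. Products were assigned to precursors by the parent each row names. Shares carry exact (Clopper-Pearson) 95% intervals, which treat the counted units as independent. Pairs with a family number, the largest and smallest overlap among the others, and as- loci without a partner were named by rule. Members and lists were chosen with earlier results of these data known. Homologous pairs were oriented by name or by the strand of neighbouring loci. The RefSeq table (ARS-UCD2.0) served for names and neighbours alone. Sequences were not analysed here. Python 3.11.15, scipy 1.17.1, numpy 2.4.6 and matplotlib 3.10.9 were used, and the pair search was tested on simulated lists.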

Additional observations from a re-analysis of the deposited data

How the results depend on the processing

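Of 28 alternative values, 25 changed by less than the limit set for them. The limit was a fixed ratio for counts and the SD over pairs for medians. Most of these settings could not change a value. The smallest overlap was 50 nt and 94.3% of the shorter span, and facing products shared at least 16 nt. Products assigned by position and by parent were the same for every precursor. The number unchanged is therefore no measure of stability. Requiring an overlap of 10 nt, or 50% of the shorter span, left 25 bovine and 17 feline pairs, and assigning products by position instead of by parent left 25 and 15 pairs with facing products, as did requiring 10 or 15 nt of product overlap. Divided by the longer span in place of the shorter, the median overlap went from 100% to 92.6% in the cow and in the cat, beyond the limit in both. Requiring a family number in at least 1 name left 21 bovine pairs, within the limit, and 11 feline pairs, beyond it. No paired analysis was possible because each species has 1 call set and no result comes from a test. For the same reason no replicate could be left out. The position files hold no read depth, and the read numbers of the study's supplement were not used here, so how far depth limits a missing product or partner was not tested.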
